A study of Mus musculus with 6 samples.

Results

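The genes of the mitotic spindle and kinetochore were followed in dendritic cells grown from bone marrow, to ask whether UV irradiation of the skin of marrow donors was accompanied by different levels of cell division transcripts. The list held 57 gene symbols, chosen with earlier results of these data known. Of these, 56 were found on a probe set (the group of array probes that reports 1 transcript) carrying a single gene symbol, and all 56 passed the filter on dim signals, out of 13956 genes tested and 19938 genes measured. Ccnb1, cyclin B1, had no such probe set listed and is not described by values. Sgol1 of the list was matched as Sgo1.

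Cells divide by separating duplicated chromosomes on a bipolar spindle of microtubules. Cyclin-dependent kinase 1 with cyclins A and B starts mitosis, condensin compacts the chromosomes, kinetochores built on centromeres bind microtubules, and a checkpoint holds back the anaphase-promoting complex (APC/C) until every kinetochore is attached. Transcripts of most of these proteins are made late in the cell cycle and are scarce in resting cells, so they are widely read as markers of dividing cells. In marrow cultured with GM-CSF, dividing precursors give rise to dendritic cells, which themselves divide little once mature.

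The comparison was between groups of 3 arrays, 6 arrays in all. Every array came from female C57BL/6J recipient mice that had received 2000000 bone marrow cells from congenic B6.SJL-Ptprca donors, which carry the CD45.1 form of the antigen CD45. In the naive-donor group the donors were untreated. In the UV-donor group the donors had been irradiated on shaved back skin with at most 8 kJ/m2 of broadband UV. An age of 6 to 10 weeks, unless stated otherwise, is given for the mice of both groups. Recipient marrow was grown for 5 days in GM-CSF and IL-4 (10 ng/ml of each), and CD11c+ cells were enriched with magnetic beads to a purity above 95%. The study text also describes implanted pellets of prostaglandin E2, which the labels of these 6 arrays do not mention. The share of donor-derived cells in the cultures and any conditioning of the recipients are not given in the sources used here. Nor is it said whether each preparation had its own recipient, and the p-values therefore cover the spread between preparations only, which may be technical. RNA of a bulk preparation was measured, so more dividing cells and more of a transcript per cell cannot be told apart.

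The arrays were alike in overall signal, with medians of all 35556 probe sets between 7.16 and 7.23 on the log2 scale. Itgax, which encodes CD11c, lay between 13.71 and 13.79 on the 6 arrays. The class II gene H2-Aa lay above 13 throughout, as did Cd74, which encodes the class II invariant chain. H2-Ab1, another class II gene, lay between 12.50 and 12.69, while Flt3 was too dim to be tested. Markers of B cells and of T and NK cells were mostly dim, with 2 of 7 and 3 of 8 measured markers bright enough to test.

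The promoters of many mitotic genes share short sequence elements, which are shown here for some members. Whether these elements have a part in the differences between arrays was not tested. The cell cycle homology region, CHR, was searched as TTTGAA, and the box bound by the factor NF-Y as CCAAT, each on both strands. Matches of the CHR and the CCAAT box can overlap by at most 1 base. The sequences below run 5′ to 3′ on the gene's strand, end at the base before the annotated transcription start and come from RefSeq's GRCm38.p6. Capitals mark both motifs, as TTTGAA or TTCAAA and as CCAAT or ATTGG. The genes are the 6 with the smallest p among the 16 measured members whose 250 bases before the start held both motifs. Their positions are chr7:80294404-80294475 (plus strand) for Prc1, chr4:118437344-118437406 (minus strand) for Cdc20, chr15:102296239-102296292 (plus strand) for Espl1, chr10:69352913-69353130 (minus strand) for Cdk1, chr1:136467610-136467847 (plus strand) for Kif14 and chr8:116921712-116921739 (plus strand) for Cenpn.
Prc1: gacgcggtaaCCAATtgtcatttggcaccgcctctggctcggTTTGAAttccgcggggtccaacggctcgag
Cdc20: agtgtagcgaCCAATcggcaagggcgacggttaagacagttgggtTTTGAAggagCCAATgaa
Espl1: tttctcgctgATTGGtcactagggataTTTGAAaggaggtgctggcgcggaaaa
Cdk1: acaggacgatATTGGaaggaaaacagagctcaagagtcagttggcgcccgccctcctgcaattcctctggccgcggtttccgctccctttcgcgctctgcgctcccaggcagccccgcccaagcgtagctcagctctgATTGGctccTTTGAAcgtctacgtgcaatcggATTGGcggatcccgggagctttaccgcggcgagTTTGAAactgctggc
Kif14: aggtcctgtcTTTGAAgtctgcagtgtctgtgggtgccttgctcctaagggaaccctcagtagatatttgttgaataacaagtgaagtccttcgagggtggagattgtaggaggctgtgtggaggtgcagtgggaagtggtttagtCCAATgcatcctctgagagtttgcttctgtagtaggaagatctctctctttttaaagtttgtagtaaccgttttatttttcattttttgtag
Cenpn: ccgagcggccATTGGcggcTTCAAAagc
Counted from the start, with negative positions upstream, the CHR begins at -30 in Prc1, -27 in Espl1, -18 in Cdc20 and, on the opposite strand, -9 in Cenpn, each with a CCAAT box farther upstream. Cdk1 has a CHR at -71 and at -15, with CCAAT boxes on the opposite strand at -208, -80 and -48. The CHR of Kif14 lies farther away, at -228, and its CCAAT box at -92. Prc1 had another listed start farther upstream, from which its CHR begins at -5.

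Promoters were listed for 48 of the 57 members. Aurkb, Smc4, Tpx2, Cdca2, Ccna2, Spc24, Kif20a, Incenp and Foxm1 had no entry. In the 250 bases before the start, 19 of 48 members (39.6%) held a CHR, against 12.8% of the 11112 tested genes with a promoter. A CCAAT box was found in 32 (66.7%), against 39.1%. Both motifs stood together in 16 (33.3%), against 4.81%. When the 50 bases after the start were included, a window added after these matches were seen, 34 members (70.8%) held a CHR and 28 (58.3%) held both, against 14.3% and 5.75% of tested genes. An E2F site, searched as TTTCCCGC or TTTGGCGC, was found in 3 members (6.25%), namely Kif15, Kif18a and Ncapd2, against 2.66%. In genes of DNA replication a CHR was found in 5 of 33 (15.2%), a CCAAT box in 20 (60.6%) and an E2F site in 6 (18.2%) in the same 250 bases. In 65 other mitotic genes these shares were 32.3%, 61.5% and 7.69%. The median log2 difference was 0.52 over the 19 measured members with a CHR before the start and 0.54 over the 28 without.

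**Figure D1:**
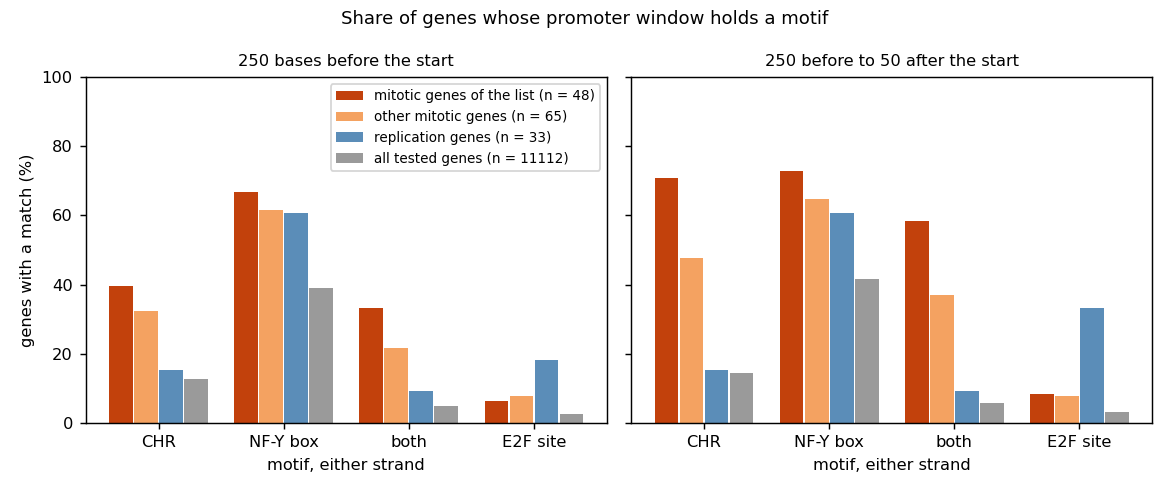
Share of genes (percent) whose promoter window holds a CHR, a box for NF-Y, both, or an E2F site, for the mitotic genes of the list, the other mitotic genes, replication genes and all tested genes; the left panel covers the 250 bases before the start and the right panel adds the 50 bases after it. Both motifs together were found in 33.3% of the 48 mitotic genes in the left panel and in 58.3% in the right panel, against 4.81% and 5.75% of all tested genes.

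All 56 measured mitotic genes had a higher mean signal in the UV-donor group than in the naive-donor group. The difference ran from 0.080 (1.06-fold) for Smc4 to 0.75 (1.68-fold) for Kif4, with a median of 0.53 (1.45-fold) and a mean of 0.52 over the 56 genes. Among all tested genes the median difference was 0.0016, and 50.6% were higher. None of the 56 passed the test over all genes (limma, Benjamini-Hochberg adjusted p under 0.05), a level that 0.172% of tested genes reached in the upward direction. Without adjustment, 54 of 56 were higher with p under 0.05 and 0 were lower, against 9.6% and 5.49% of all tested genes. In 50 of 56, every UV-donor array lay above every naive-donor array, as in 12.4% of tested genes. Because the members vary together, these counts do not rest on 56 separate observations.

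The mitotic genes made up a large part of the genes with the biggest differences. Of 152 tested genes that were at least 0.5 higher on the log2 scale in the UV-donor group, 38 were members (25% of these genes, and 67.9% of the members), where 1.09% of all tested genes reached this size. At a difference of at least 0.3, reached by 3.14% of tested genes, they were 51 of 438 genes. Other mitotic genes supplied 24 of the 152 and 50 of the 438. The members were chosen with earlier results of these data known, so these shares are a description and no test of the list.

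The members varied together from array to array. Centred on the naive-donor mean of each gene, the mean over the 56 genes was -0.12, 0.22 and -0.098 on naive-donor arrays 1, 2 and 3, and 0.79, 0.41 and 0.35 on UV-donor arrays 1, 2 and 3. In uncentred log2 signal the same means were 8.74, 9.08 and 8.76, and 9.65, 9.27 and 9.21. UV-donor array 1 therefore stood well above all the others, while naive-donor array 2 came within 0.18 of UV-donor array 2 and within 0.13 of UV-donor array 3. UV-donor array 1 was the highest of the 6 arrays for 55 of 56 members, with Smc4 the exception, whereas it was the highest for 21.9% of all tested genes. Naive-donor array 2 was the highest naive-donor array for 55 of 56, with Cdca8 the exception. In 49 members both patterns held and, in addition, all UV-donor arrays lay above naive-donor array 2.

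**Figure D2:**
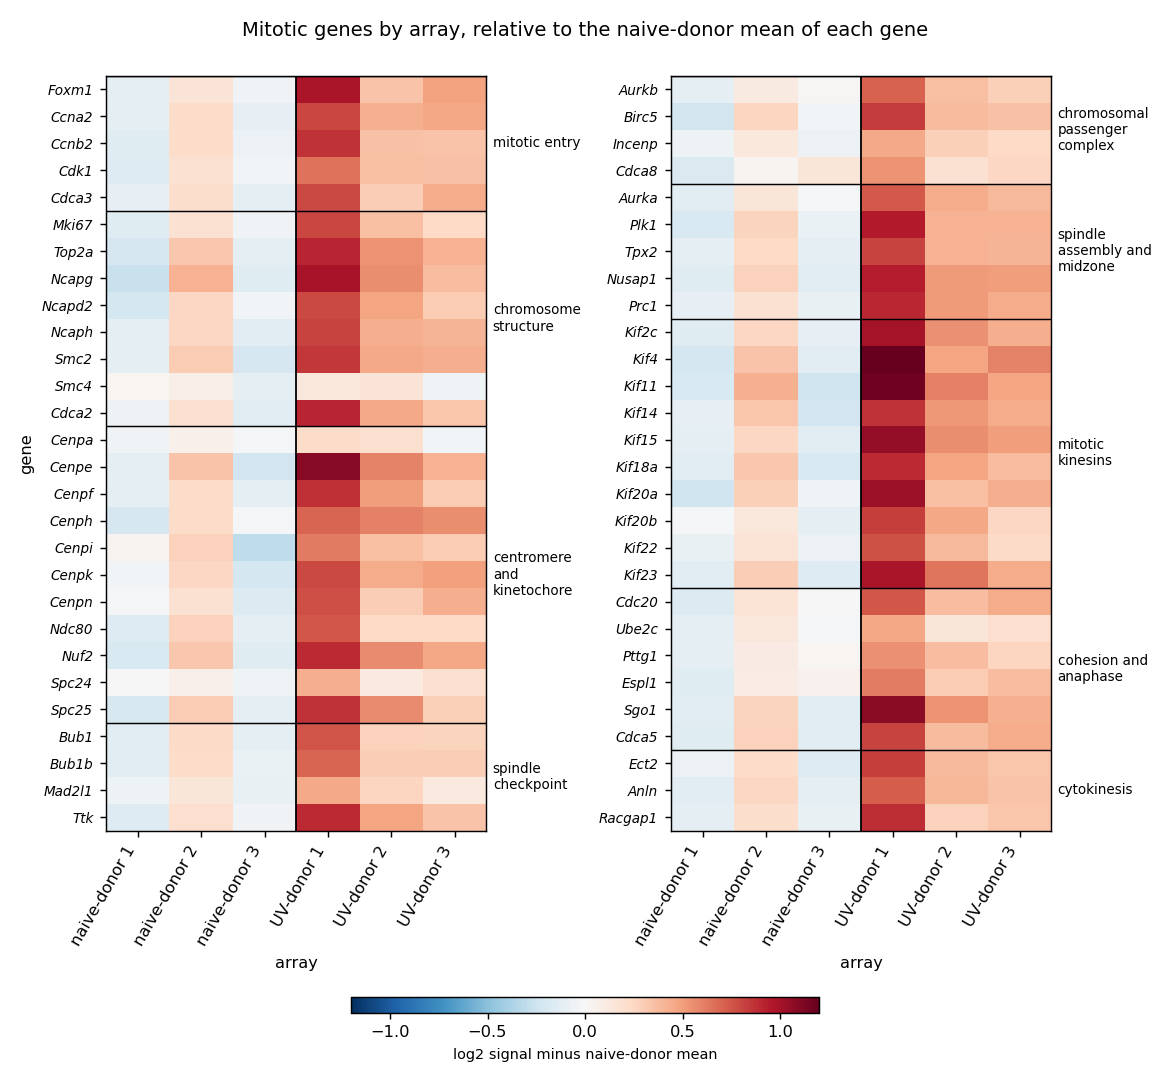
Log2 signal of each of the 56 mitotic genes (rows, grouped by role) on each of the 6 arrays (columns), minus the gene's naive-donor mean; red is higher and blue lower, on the scale below the panels. UV-donor array 1 is the highest in 55 of 56 rows, naive-donor array 2 is the highest of the naive-donor arrays in 55, and the rows of Smc4 and Cenpa stay pale.

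Leaving out single arrays shows how far each one carried the difference. Without UV-donor array 1 the mean difference of the members was 0.38, and without naive-donor array 2 it was 0.63. All 56 members kept a difference above 0 whichever single array was left out. With both of these arrays left out together, which were picked after seeing that they stood apart in the members, the mean difference was 0.49 and 42 members passed limma. Removing the outermost array of each group narrows the spread that the test uses, so these calls are not counted as support. Over the 6 arrays, the correlation of a member with the mean of the other 55 had a median of 0.99 and exceeded 0.9 for 53 genes. The members that followed the others least were Smc4 (r = 0.65), Cenpa (0.81) and Cdca8 (0.86). Within groups, after subtraction of each group's mean, the median was 0.97. These correlations rest on 6 shared arrays and are given as a description.

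Genes that start mitosis had similar differences to one another. For 5 measured members of this role the median was 0.52, from 0.45 to 0.60, and in all 5 the groups did not overlap. Ccna2, cyclin A2, read 10.80, 11.13 and 10.81 on naive-donor arrays 1 to 3 and 11.72, 11.34 and 11.38 on UV-donor arrays 1 to 3. Its lowest UV-donor value was above its highest naive-donor value, and the difference was 0.56 (SE 0.12, limma adjusted p = 0.130). Cdk1, the kinase that these cyclins activate, read 10.33, 10.66 and 10.45 against 11.13, 10.84 and 10.83, a difference of 0.45 (SE 0.11, limma adjusted p = 0.149). Ccnb2, cyclin B2, read 11.05, 11.42 and 11.12 against 12.07, 11.55 and 11.54, so that UV-donor array 1 stood far above the other UV-donor arrays. Foxm1, the transcription factor that activates many genes of late cell cycle phases, read 8.15, 8.42 and 8.22 against 9.24, 8.61 and 8.74 and had the largest difference of this role (0.60, 95% interval 0.25 to 0.95, limma adjusted p = 0.157). Cdca3, a factor that helps remove the mitotic inhibitor Wee1, differed by 0.51.

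Genes of chromosome structure had a median difference of 0.56 over 8 genes. Mki67, which encodes the surface coat protein of mitotic chromosomes known as Ki-67, read 10.70, 11.03 and 10.81 on the naive-donor arrays and 11.65, 11.21 and 11.09 on the UV-donor arrays, a difference of 0.47 (SE 0.14, limma adjusted p = 0.201). Top2a, the topoisomerase that untangles sister DNA, read 9.92, 10.45 and 10.00 against 11.04, 10.66 and 10.54 and differed by 0.62 (SE 0.16, limma adjusted p = 0.163). In both genes the groups did not overlap, although only a small gap separated naive-donor array 2 from UV-donor array 3. Condensin, the ring-shaped complex that compacts chromosomes, was represented by 5 genes. Its subunit Ncaph read 9.37, 9.74 and 9.35 against 10.30, 9.92 and 9.89, a difference of 0.55. Its ATPase Smc2 read 8.76, 9.18 and 8.68 against 9.72, 9.32 and 9.31, a difference of 0.58 (95% interval 0.23 to 0.92). Ncapg (0.64) and Ncapd2 (0.52) lay in the same range, and the values of Ncapg overlapped, with naive-donor array 2 at 8.45 and UV-donor array 3 at 8.40.

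Smc4, the partner ATPase of Smc2 in the same ring, had the smallest difference of the list. It read 11.13, 11.19 and 11.00 on the naive-donor arrays and 11.24, 11.26 and 11.06 on the UV-donor arrays, and the groups overlapped. The difference was 0.080 with a 95% interval of -0.088 to 0.25 (limma adjusted p = 0.638), and the difference between Smc4 and Smc2 was not tested. Cdca2, which brings a phosphatase to chromatin as cells leave mitosis, differed by 0.57. In all, 7 of the 8 genes of this role were higher with p under 0.05 before adjustment and 6 had groups that did not overlap.

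Centromere and kinetochore genes held both the member with the smallest p and 1 of the 2 that did not reach an unadjusted p of 0.05. Cenph, a subunit of the inner kinetochore network on centromeric chromatin, read 6.07, 6.49 and 6.25 on the naive-donor arrays and 6.97, 6.88 and 6.83 on the UV-donor arrays. The UV-donor values lay close together and clear of the naive-donor values. Cenph was also among the dimmest genes tested: its mean over the 6 arrays, 6.58, lay just above the limit for dim signals, under which all 3 naive-donor values lay, so it entered the test through the group in which it was higher. The difference was 0.62 (SE 0.10, limma adjusted p = 0.0627), or 1.54-fold, and without naive-donor array 2 it was 0.73 with a limma adjusted p of 0.042, the only call of a member when single arrays were left out. Cenpk, another subunit of that network, read 6.58, 6.87 and 6.40 against 7.41, 7.06 and 7.11 and differed by 0.58 (SE 0.13, limma adjusted p = 0.141). Nuf2, part of the NDC80 complex that grips microtubules, read 8.33, 8.84 and 8.37 against 9.40, 9.08 and 8.98, a difference of 0.64 (SE 0.15, limma adjusted p = 0.149). Its partners in that complex had smaller differences, with Spc25 at 0.57, Ndc80 at 0.41 and Spc24 at 0.25. The groups overlapped in Ndc80 and Spc25 and not in Spc24. Cenpe, the kinesin that carries chromosomes to the spindle equator, had the largest difference of this role (0.70), and Cenpf (0.56), Cenpn (0.50) and Cenpi (0.43) lay lower.

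Cenpa, the histone H3 variant that marks centromeres, had the smallest difference of this role. Its values were 10.39, 10.50 and 10.41 on the naive-donor arrays and 10.65, 10.63 and 10.40 on the UV-donor arrays, where array 3 lay inside the naive-donor range. The difference was 0.13, with a 95% interval of -0.043 to 0.30 and a limma adjusted p of 0.447.

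**Figure D3:**
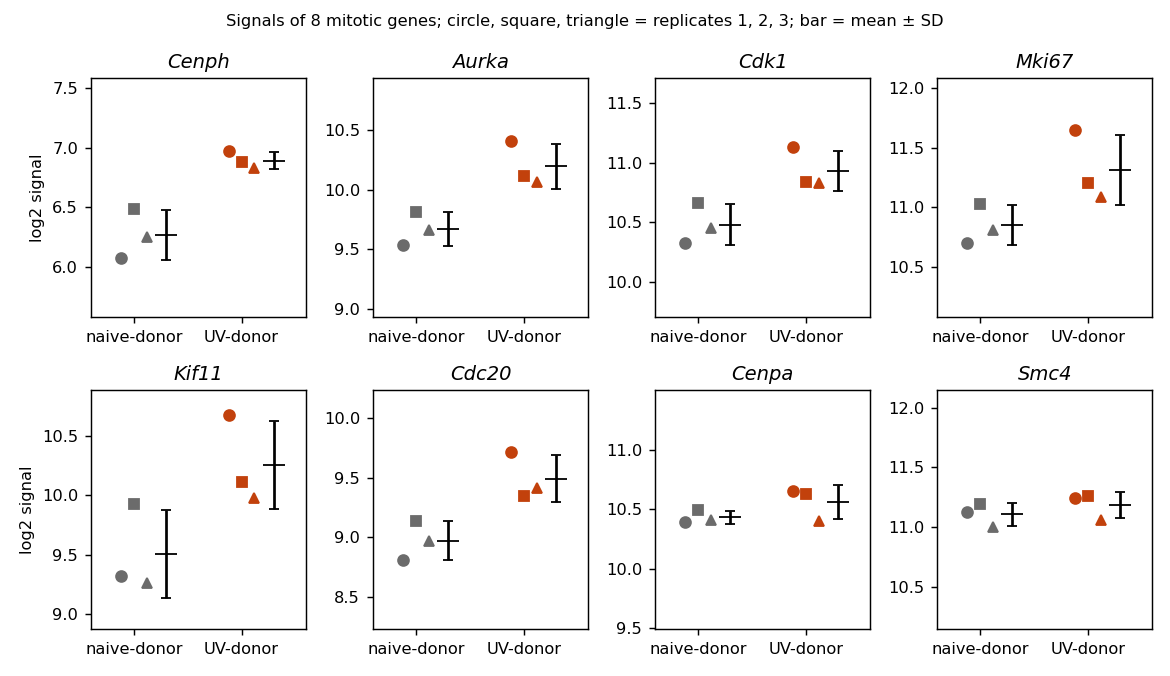
Log2 signal (vertical axis, a span of 2 units in each panel) of 8 mitotic genes on the naive-donor arrays (grey) and UV-donor arrays (orange), with circles, squares and triangles for replicates 1, 2 and 3 and bars for the mean ± SD (n = 3). The groups are apart in Cenph, Aurka, Cdk1, Mki67, Kif11 and Cdc20 and overlap in Cenpa and Smc4.

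The spindle checkpoint was represented by 4 genes with a median difference of 0.43. Ttk, the kinase known as MPS1 that recruits the checkpoint proteins, read 7.07, 7.43 and 7.18 against 8.12, 7.69 and 7.56, a difference of 0.57 (SE 0.15, limma adjusted p = 0.161). Bub1b, a part of the complex that inhibits APC/C, read 9.05, 9.40 and 9.10 against 9.89, 9.48 and 9.48 and differed by 0.43 (SE 0.13, limma adjusted p = 0.195), and Bub1 differed by 0.43. The groups did not overlap in these 3 genes. Mad2l1, which encodes the checkpoint protein MAD2, read 10.77, 10.97 and 10.73 against 11.27, 11.08 and 10.94. Here UV-donor array 3 lay just under naive-donor array 2, and the difference was 0.27 (SE 0.10, limma adjusted p = 0.242).

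The chromosomal passenger complex, which corrects faulty attachments of chromosomes, had the smallest median difference of the 9 roles, at 0.39 over its 4 genes. Aurkb, its kinase, read 10.60, 10.82 and 10.72 against 11.41, 11.07 and 11.00, a difference of 0.45 (SE 0.11, limma adjusted p = 0.152). Incenp, its scaffold, read 9.14, 9.34 and 9.14 against 9.66, 9.49 and 9.45, a smaller difference of 0.33 with little spread (SE 0.08, limma adjusted p = 0.149). Cdca8, the subunit borealin, read 9.22, 9.43 and 9.54 against 9.94, 9.58 and 9.65 and was the 1 member whose highest naive-donor value came from array 3. Birc5, survivin, differed by 0.52. The groups did not overlap in any of the 4 genes.

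Genes of spindle assembly had a median difference of 0.59, and all 5 had groups that did not overlap. Aurka, the kinase that matures spindle poles, read 9.54, 9.82 and 9.66 against 10.41, 10.11 and 10.06, a difference of 0.53 (SE 0.10, limma adjusted p = 0.114). Prc1, which bundles the microtubules of the central spindle, read 8.47, 8.75 and 8.48 against 9.48, 9.08 and 9.02, a difference of 0.62 (SE 0.13, limma adjusted p = 0.117). After Cenph these 2 genes had the smallest p-values of the list. Plk1, the polo-like kinase that acts at several steps of mitosis, read 9.93, 10.38 and 10.03 against 11.06, 10.53 and 10.52, with UV-donor array 1 far above the other UV-donor arrays, and differed by 0.59 (SE 0.16, limma adjusted p = 0.169). Nusap1, which stabilises spindle microtubules, differed by 0.65, and Tpx2, the activator of Aurka, by 0.54.

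The mitotic kinesins, motor proteins that move or take apart microtubules, had the largest median difference of the 9 roles at 0.64, from 0.46 for Kif22 to 0.75 for Kif4, which both bind chromosomes. All 10 had groups that did not overlap, as had 12.4% of all tested genes with UV-donor higher. Kif15, which helps keep spindle poles apart, read 8.09, 8.45 and 8.07 against 9.26, 8.76 and 8.71, a difference of 0.71 (SE 0.16, limma adjusted p = 0.133). Kif23, a motor of the central spindle, read 9.10, 9.52 and 9.07 against 10.21, 9.87 and 9.68, a difference of 0.69 (SE 0.15, limma adjusted p = 0.142). Kif2c, which takes apart microtubules at kinetochores, read 8.12, 8.52 and 8.17 against 9.27, 8.82 and 8.70, a difference of 0.66 (SE 0.15, limma adjusted p = 0.149). In each of these 3 genes the lowest UV-donor value, on array 3, lay above naive-donor array 2. Kif20a, which acts in cytokinesis, had the largest p of the role. It read 8.94, 9.47 and 9.13 against 10.21, 9.54 and 9.61, where UV-donor array 2 exceeded naive-donor array 2 by little, and differed by 0.61 (SE 0.19, limma adjusted p = 0.203). Kif11, the motor that pushes spindle poles apart, differed by 0.75, and its naive-donor array 2 (9.93) lay next to UV-donor array 3 (9.98). Kif14 (0.61), Kif18a (0.58) and Kif20b (0.51) lay between.

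Genes of sister cohesion and anaphase had a median difference of 0.47, and in all 6 the groups did not overlap. Cdc20, the activator that turns on APC/C at anaphase, read 8.81, 9.13 and 8.97 against 9.72, 9.35 and 9.41, a difference of 0.52 (SE 0.11, limma adjusted p = 0.127). Pttg1, securin, which APC/C destroys to free separase, read 9.12, 9.35 and 9.26 against 9.79, 9.61 and 9.50, a difference of 0.39 (SE 0.09, limma adjusted p = 0.132). Espl1, separase itself, differed by 0.43. Sgo1, shugoshin, which shields cohesin at centromeres, differed by 0.68, and Cdca5, sororin, which stabilises cohesin on DNA, by 0.54. Ube2c, the ubiquitin-conjugating enzyme that works with APC/C, had the smallest difference of this role. It read 10.05, 10.31 and 10.16 against 10.64, 10.32 and 10.38, so that UV-donor array 2 lay barely above naive-donor array 2, and differed by 0.27 (SE 0.10, limma adjusted p = 0.251).

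The 3 genes of cytokinesis, the final division of the cytoplasm, differed by 0.49 to 0.52 with groups that did not overlap. Anln, anillin of the contractile ring, read 9.39, 9.76 and 9.41 against 10.24, 9.91 and 9.86, a difference of 0.49 (SE 0.13, limma adjusted p = 0.163). Ect2, which activates the GTPase RhoA at the division site, read 8.96, 9.25 and 8.87 against 9.85, 9.41 and 9.36, a difference of 0.52 (SE 0.14, limma adjusted p = 0.170). Racgap1, its partner, read 9.64, 9.97 and 9.67 against 10.65, 10.04 and 10.10, and again UV-donor array 1 was the highest by far.

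**Figure D4:**
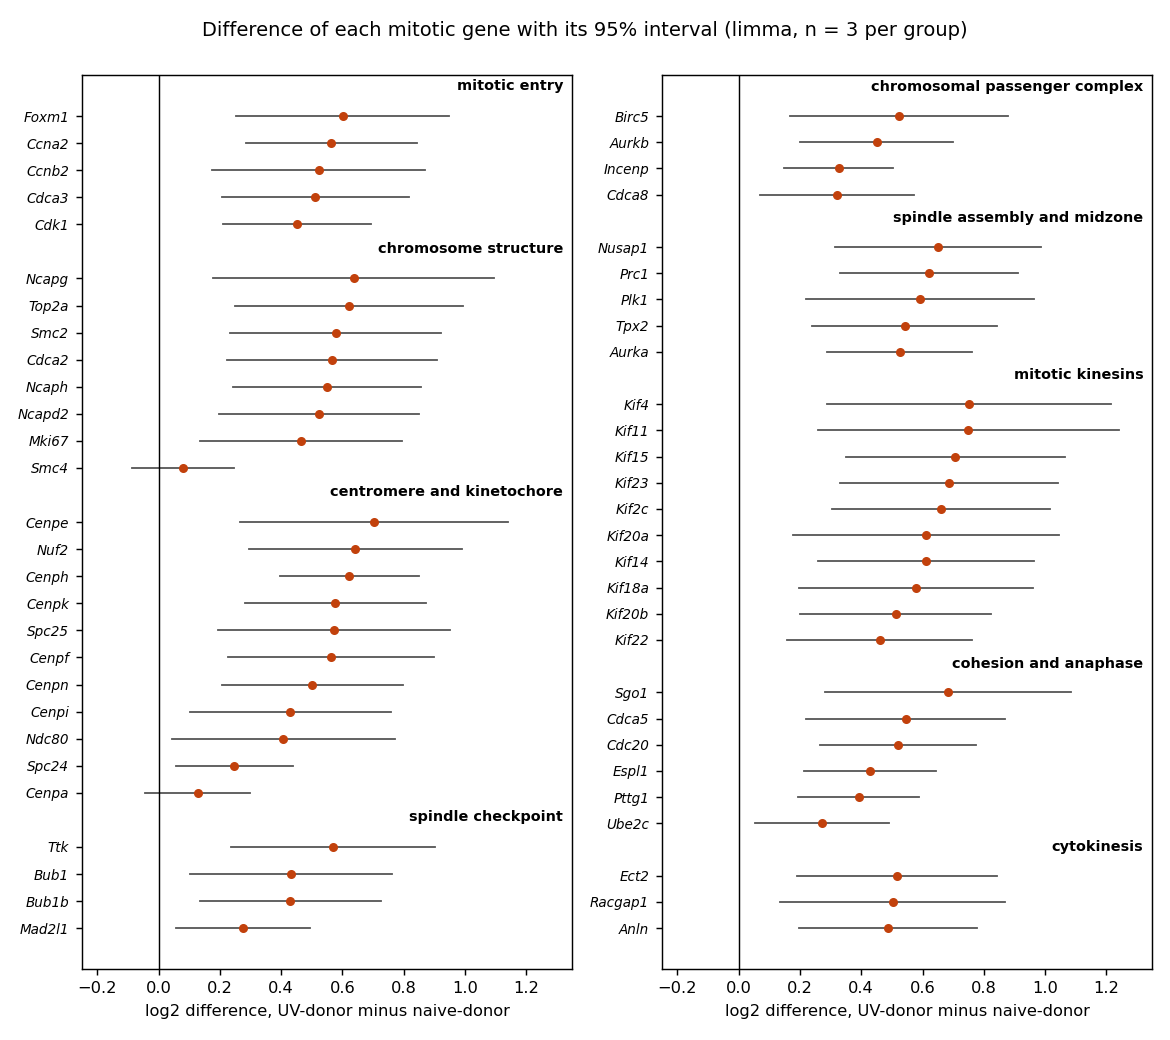
Log2 difference of each of the 56 mitotic genes, UV-donor minus naive-donor (horizontal axis), with its 95% interval from limma (n = 3 per group), grouped by role and sorted by size within it. All 56 points lie to the right of 0, the intervals of Smc4 and Cenpa reach across it, and the mitotic kinesins have the largest median.

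Other genes of the mitotic machinery showed the same direction with somewhat smaller differences. Of 73 tested genes on a second list, 72 had higher values, and 62 were higher and 0 lower with p under 0.05 before adjustment. In 54 the groups did not overlap, and 0 passed limma over all genes. Among all tested genes, 9.6% were higher with such a p and 12.4% had groups that did not overlap with UV-donor higher. The median difference of the 73 genes was 0.38. Those with the smallest p were Cenpm, a kinetochore subunit (0.44, SE 0.07, limma adjusted p = 0.0858), and Fbxo5, an inhibitor of APC/C (0.76, SE 0.13, limma adjusted p = 0.0859). The largest difference was that of Esco2, an acetyltransferase of cohesin (0.78). Psrc1 was the 1 gene with a lower mean (-0.11, limma adjusted p = 0.565). Replication genes had higher values in 41 of 41 cases, with a median of 0.32, 33 of them reached an unadjusted p under 0.05, and 0 passed limma over all genes. Among them Gins1 (0.49) and Orc6 (0.35) had the smallest p and Prim1 (0.63) the largest difference. Their array means were -0.084, 0.14 and -0.054 on naive-donor arrays 1 to 3 and 0.51, 0.23 and 0.23 on UV-donor arrays 1 to 3, so that the highest array of each group was the same as for the members.

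The lists of APC/C and of cohesin genes, whose complexes also act in mitosis, had smaller median differences. The list of APC/C, the target of Cdc20 and the checkpoint, held core subunits and the activator Fzr1. Of its 14 genes, 11 had higher values with a median difference of 0.047, and 1 reached an unadjusted p under 0.05. That gene was Anapc13 (0.16, limma adjusted p = 0.265), followed by Cdc16 at 0.091. The cohesin list, which held Wapl, Pds5a and Pds5b besides the core and loader, had a median of 0.088 over 10 genes. Of these, 3 were higher with p under 0.05 before adjustment. Smc1a (0.20) and Rad21 (0.20) had the smallest p and Smc3 the largest difference (0.22). Neither list held a gene that passed limma over all genes. These medians were not tested against that of the mitotic genes.

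Regulators that decide on entry into the cycle went both ways. Of 13 tested G1 cyclins, kinases and inhibitors, 8 had higher and 5 lower values (median 0.082), 4 were higher and 2 lower with p under 0.05 before adjustment, and 0 passed limma over all genes. Cdkn2b, the inhibitor p15 of cyclin D kinases, had the smallest p and the largest difference. It read 11.60, 11.42 and 11.37 on the naive-donor arrays and 10.93, 11.16 and 11.19 on the UV-donor arrays, lower on every UV-donor array and lowest on array 1, with a difference of -0.37 (SE 0.09, limma adjusted p = 0.149). Cdkn2a, its neighbour gene, which encodes p16 and p19ARF, was picked out after its values were seen. It read 9.67, 9.51 and 9.39 against 9.08, 9.31 and 9.31, a difference of -0.29 (limma adjusted p = 0.199). Cdkn2d, the inhibitor p19, had the next smallest p and a higher value (0.18). Among 21 regulators of the E2F and DREAM complexes, which bind CHR and E2F sites, 19 had higher values (median 0.097) and 8 were higher with p under 0.05 before adjustment. E2f7 (0.36) and E2f2 (0.36) had the smallest p and E2f8 (0.60) the largest difference, and none of the 21 passed limma over all genes.

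**Figure D5:**
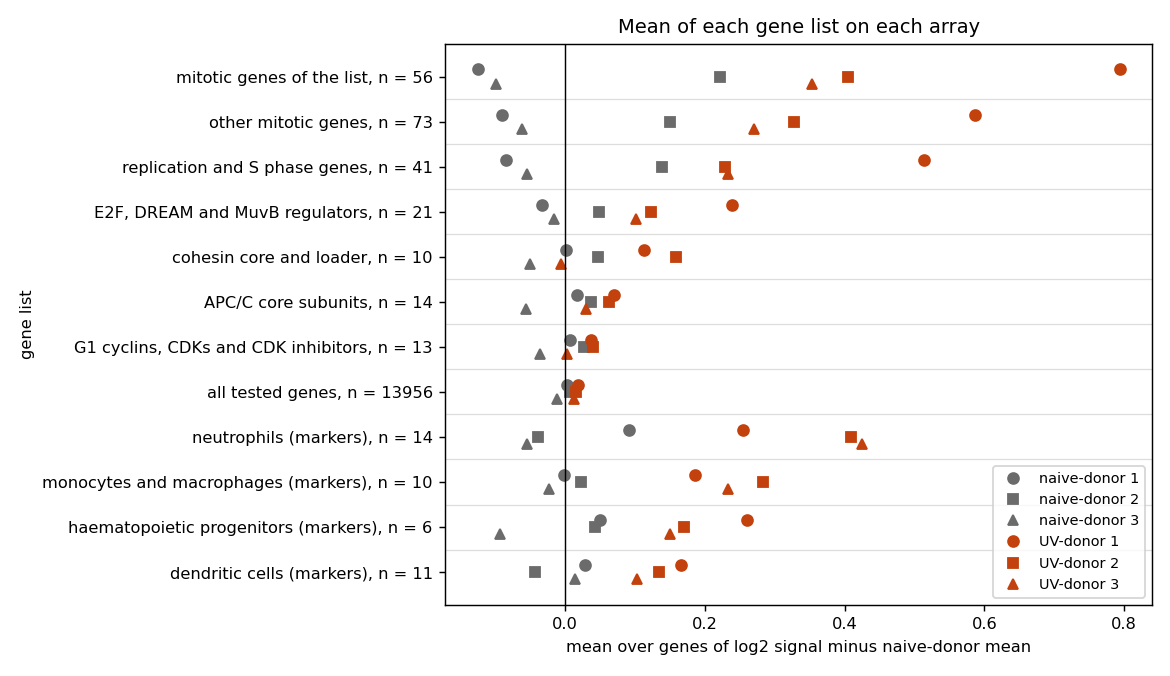
Mean over the tested genes of each list (rows, with the number of genes) of the log2 signal minus the naive-donor mean, on each naive-donor (grey) and UV-donor (orange) array. The mitotic genes run from -0.12 to 0.22 on the naive-donor arrays and from 0.35 to 0.79 on the UV-donor arrays. UV-donor array 1 is the lowest UV-donor array for neutrophil markers. It is the highest for the means of progenitor and dendritic cell markers, in which Cd34 and Ciita weigh heavily.

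Markers of other cells that such a culture can hold also differed between the groups. Of 14 tested neutrophil markers, 11 had higher values and 8 were higher with p under 0.05 before adjustment, and S100a8 (0.77, limma adjusted p = 0.0365) and Ltf (0.54, limma adjusted p = 0.0199) rose over all genes tested, while Ngp had the largest difference (1.03, limma adjusted p = 0.0551). For granule proteins of early neutrophil precursors, picked out after their values were seen, the difference was 0.044 for Mpo, -0.035 for Elane and -0.12 for Prtn3, whose UV-donor values all lay under its naive-donor values, and Ctsg was dim. Among the other neutrophil markers, Camp was also lower (-0.019), and Lcn2 differed by 0.13 (limma adjusted p = 0.731). The mean of the neutrophil list ran from -0.054 to 0.092 on the naive-donor arrays and from 0.26 to 0.42 on the UV-donor arrays. UV-donor array 1, the highest for the mitotic genes, was the lowest of its group for neutrophil markers. It was the highest of its group for the progenitor list (0.26, against 0.17 and 0.15) and for the dendritic cell list (0.17, against 0.13 and 0.10). Cd34 weighed heavily in the progenitor means, with 10.55, 10.08 and 10.06 on UV-donor arrays 1 to 3 and a naive-donor mean of 9.47. Ciita did so in the dendritic cell means, with 10.42, 10.07 and 10.01 and a naive-donor mean of 9.68. All 6 tested progenitor markers had higher values, with list means from -0.093 to 0.050 against 0.15 to 0.26 and a median difference of 0.087. Cd34 (0.76, limma adjusted p = 0.120) and Gata2 (0.12) had the smallest p. Meis1 (0.054), Myb (0.029) and Erg (0.0049) differed least. Of the 6 progenitor markers, 0 passed limma over all genes and 2 had an unadjusted p under 0.05. Hoxa9, Mecom and Hlf were dim.

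In the monocyte and macrophage list, 7 of 10 tested markers had higher values and 5 were higher with p under 0.05 before adjustment, with list means from -0.022 to 0.023 on the naive-donor arrays and from 0.19 to 0.28 on the UV-donor arrays. C1qb rose (0.63, limma adjusted p = 0.0199) and Adgre1 followed (0.51, limma adjusted p = 0.0627). Dendritic cell markers had higher values in 9 of 11 cases, 2 of them with p under 0.05 before adjustment, with list means from -0.043 to 0.028 against 0.10 to 0.17. Cd209a rose (0.59, limma adjusted p = 0.0199), Ciita differed by 0.49 and Itgax by -0.044. Of the remaining lists, 3 of 5 tested erythroid and megakaryocyte markers (Ppbp 0.34, Pf4 0.21), 3 of 3 of eosinophils, basophils and mast cells (Prg2 0.75, Siglecf 0.19), 1 of 2 of B and plasma cells (Cd79b 0.058, Pax5 -0.037) and 2 of 3 of T and NK cells (Gzmb 0.22, Cd8a -0.11) had higher values. In these 4 lists 0 passed limma over all genes, and an unadjusted p under 0.05 was reached by 2, 1, 0 and 0 markers in that order. The part of these cells in the difference of the mitotic genes was not tested.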

How the data were processed

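Gene expression was measured on 6 Affymetrix arrays of CD11c+ cells, 3 per group. The deposited table holds log2 signals per probe set, from 2.52 to 14.6. The submitters' processing notes name oligo, RMA and limma, without versions or order. The genome build and any array batch are not given in the sources used here. The deposited values were used without further normalization.

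Of 35556 probe sets, 21789 had 1 gene symbol, 1621 several and 12146 none listed. Each gene was read from its 1-symbol probe set with the highest mean, and genes under the 30th percentile of that mean (6.58) were left out as dim. Top2a and Kif14 had a second, dim probe set, with differences of 0.23 and 0.018. The test was that of limma 3.58.1, run in R 4.3.3 (two-sided, p adjusted by Benjamini-Hochberg over all 13956 genes), which was tested on simulated data. An exact permutation test of 3 against 3 cannot go below 0.1. The number of arrays limits the precision.

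The members and lists were chosen with earlier results of these data known. By rule, values per array were given in each role for the members of smallest p (3 where a role had over 6 members, otherwise 2) and the one of largest p, and always for Mki67, Top2a, Cdk1, Ccnb1, Cdc20, Plk1, Aurkb and Foxm1. Of every other list the rule named the 2 genes of smallest p and the 1 of largest difference, and Itgax. Any other gene named outside the members was picked after its values were seen. The promoter window of 300 bases was added after the first matches were seen. Alternatives were other filters, scalings, priors and weights, the replicate number as a block, and each array left out in turn. Leaving out naive-donor array 2 and UV-donor array 1 together was added after seeing the data. RefSeq promoters were matched by symbol. Figures were drawn with matplotlib 3.10.9.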

Additional observations from a re-analysis of the deposited data

How the results depend on the processing

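The direction of the members did not turn under any alternative tried, and their mean difference stayed between 0.38 and 0.63. The count of members passing limma over all genes was 0 in the results above. It was 1 with array medians centred and 1 when the prior was robust and followed the intensity. Each time this was Cenph (limma adjusted p = 0.0473 and 0.0426), among 43 and 45 genes passing in all. With single arrays left out the count of members ran from 0 to 1, the 1 again being Cenph. The limma adjusted p of Cenph ran from 0.042 to 0.389 over the alternatives that tested it, apart from the next, where it was 0.0115. The largest change came from leaving out naive-donor array 2 and UV-donor array 1 together, chosen after seeing the data. Then 42 members passed limma, among 194 genes in all, and the mean difference was 0.49. Before adjustment 53 members were higher with p under 0.05, as were 8.29% of tested genes. In 54 members the groups did not overlap, as in 24.5% of tested genes with UV-donor higher. The arrays were picked by the values of the members themselves and are the outermost of their groups, which leaves 2 arrays a group with a smaller spread, so these p-values are too small to be read as a test. With single arrays left out, 49 to 55 members were higher with p under 0.05 before adjustment, as were 6.79% to 9.49% of tested genes. In the same fits the groups did not overlap in 50 to 55 members, as in 15.8% to 18.7% of tested genes with UV-donor higher. The median difference of the members then ran from 0.40 to 0.66. With the 50th percentile filter, 47 of the 49 members tested were higher with p under 0.05 before adjustment, as were 11.7% of tested genes. Quantile normalization left the mean difference at 0.50 and array weights at 0.42. Naive-donor and UV-donor arrays carry the same replicate numbers, but the deviations of the pairs had correlations of -0.13, -0.22 and 0.15, so the numbers were not taken as pairing. Fitting the replicate block gave 54 members higher with p under 0.05 before adjustment, 0 passing limma and a mean difference of 0.52. In that fit 9.21% of tested genes were higher at that p. Signal limits Cenph most, and Kif18a, Cenpi and Cenpk also had 1 or 2 naive-donor values under the limit for dim signals.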
